A study of Homo sapiens with 6 samples.

Results

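The 40 genes described here encode proteins of autophagy and of the lysosome, and were picked by gene symbol from the 54308 genes of a table of RNA sequencing signals. All 40 were listed and all 40 had a value in each of the 6 libraries. The libraries came from 143B, a human osteosarcoma cell line, grown in DMEM with 15% serum. Both groups share the line, the medium and the transfection reagent. Vector control (VC) cells, 3 libraries, carry the genotype label control and received the vector plasmid. CNTNAP4 knockout (KO) cells, 3 libraries, received a CRISPR/Cas9 plasmid directed at CNTNAP4, a cell surface receptor of the neurexin family. The labels give 48 h of transfection for both groups, and the study's methods describe sorting of transfected cells into single-cell colonies. More than 1 KO colony was expanded, and the colony of origin is not given for any library, so an effect of the deletion and a difference between cell colonies cannot be told apart here. The series' design text calls the libraries biological replicates without naming separate cultures, and the p-values measure only the spread between these 6 libraries.

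Autophagy encloses cytoplasm, organelles or protein aggregates in a double membrane that then fuses with the lysosome. A kinase complex starts the process, a lipid kinase complex and the WIPI proteins mark the site, and ubiquitin-like ligases attach ATG8 proteins such as LC3B to the growing membrane, where cargo receptors bind them. In the lysosome, a proton pump acidifies the lumen for cathepsins and glycosidases, and TFEB, TFE3 and MITF switch on many of the genes concerned. In osteosarcoma, as in other tumours, the pathway is known for recycling nutrients and for survival under stress.

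The deposited signals are on a log2 scale whose linear unit is not given in the sources used here, so that a value below 0 is a low signal and a difference of 1 is a doubling or halving of the linear signal. Between 20333 and 21041 genes had a value in each library, and the libraries share nearly the same range, from -10.87 to 12.04, and the same median of 0.62. The read depth is unknown and no counting error could be given. CNTNAP4 itself had a value in 1 library, VC3, of -7.18, which is close to the bottom of the scale, and none in the other 5. Markers of mesenchymal and bone-forming cells were present in every library, with VIM at 10.4 in VC and 10.8 in KO, SPARC at 6.50 and 6.87, and RUNX2 at 1.35 and 1.56 (means, n = 3 each). Of 3 epithelial markers, KRT8 was 0.59 log2 units higher in KO (limma adjusted p = 0.0135), EPCAM was 0.67 lower (log2 difference -0.67, limma adjusted p = 0.0157) and CDH1 had a value in 1 library alone. Their part in the results was not tested.

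Among the 40 genes, all 3 for cargo receptors and all 4 for ATG8 proteins were called higher in KO. Further genes of both kinds, not among the 40, are given below and were not all higher. Most of the 40 that belong to the ligase system, the lysosomal membrane and the proton pump did not pass the test. Of all 19306 tested genes, 12952 did not pass it either. In all, 16 of the 40 genes rose in KO and 5 fell at an adjusted p under 0.05 (limma on the log2 signals, Benjamini-Hochberg over the 19306 genes tested), and 19 were not called. Of all tested genes, 13.1% rose and 19.8% fell. The share of the 40 that rose was thus 40%, and the share that fell was 12.5%. The median log2 difference between KO and VC was 0.17 over the 40 genes and -0.13 over all tested genes. In 20 of the 40 genes all KO values lay above all VC values, against a background of 22.6% of genes with 6 values. In 12 of the 40 all KO values lay below all VC values, against a background of 36.7%. The remaining 8 had overlapping groups. In bulk RNA, fewer cells of a kind and less RNA per cell cannot be told apart.

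The counts depended on which library was left out. Without VC1, 7 of the 40 genes were called higher and 0 lower. Without VC2 the counts were 9 and 0, without VC3 they were 7 and 0, and without KO3 they were 8 and 1. They came to 13 and 4 without KO2, and to 17 and 7 without KO1. The background moved as well. Over all tested genes, 4.07% were called higher and 3.47% lower without VC1, 5.62% and 7.45% without VC2, and 3.51% and 3.05% without VC3. The shares were 15.9% and 31.0% without KO1, 9.30% and 14.3% without KO2, and 5.32% and 5.54% without KO3. GABARAPL1, GABARAPL2, SQSTM1, OPTN, TFEB, NPC1 and CTSS were called higher in all 6 of these fits, and no gene was called lower in all of them. Over the genes with 6 values the library medians were not equal, at 1.556, 1.48 and 1.525 in VC1, VC2 and VC3. In KO1, KO2 and KO3 they were 1.495, 1.405 and 1.409. With each library centred on this median, the same 16 genes were called higher and 2 lower (ULK2 and CTSK). The shares over all tested genes were then 15.6% higher and 16.7% lower. Higher calls then made up 88.9% of the calls among the 40 genes in place of 76.2%, since fewer were called lower. Fold changes of low signals depended on the scale. After 1 was added to each linear signal, the difference became -0.28 for ULK2, 0.37 for TFEB, 0.70 for CTSS and -0.29 for CTSK, and all 4 kept their call.

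**Figure D1:**
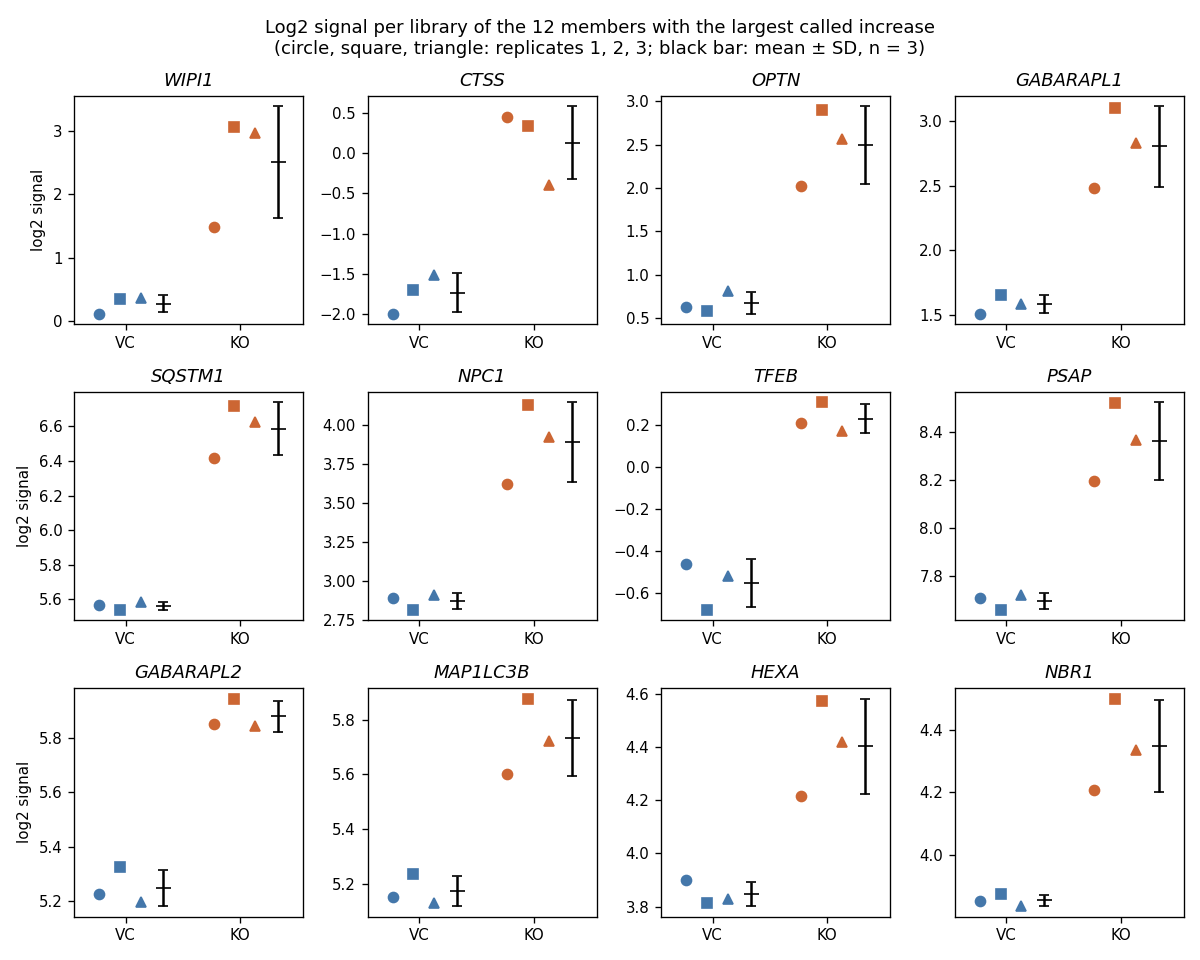
Log2 signal of the 40 genes in each of the 3 VC and 3 KO libraries, 1 row a gene and 1 point a library, grouped by the role of the protein. The KO points of OPTN, SQSTM1, GABARAPL1 and WIPI1 sit to the right of the VC points, and those of CTSK and GLA to the left.

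**Figure D2:**
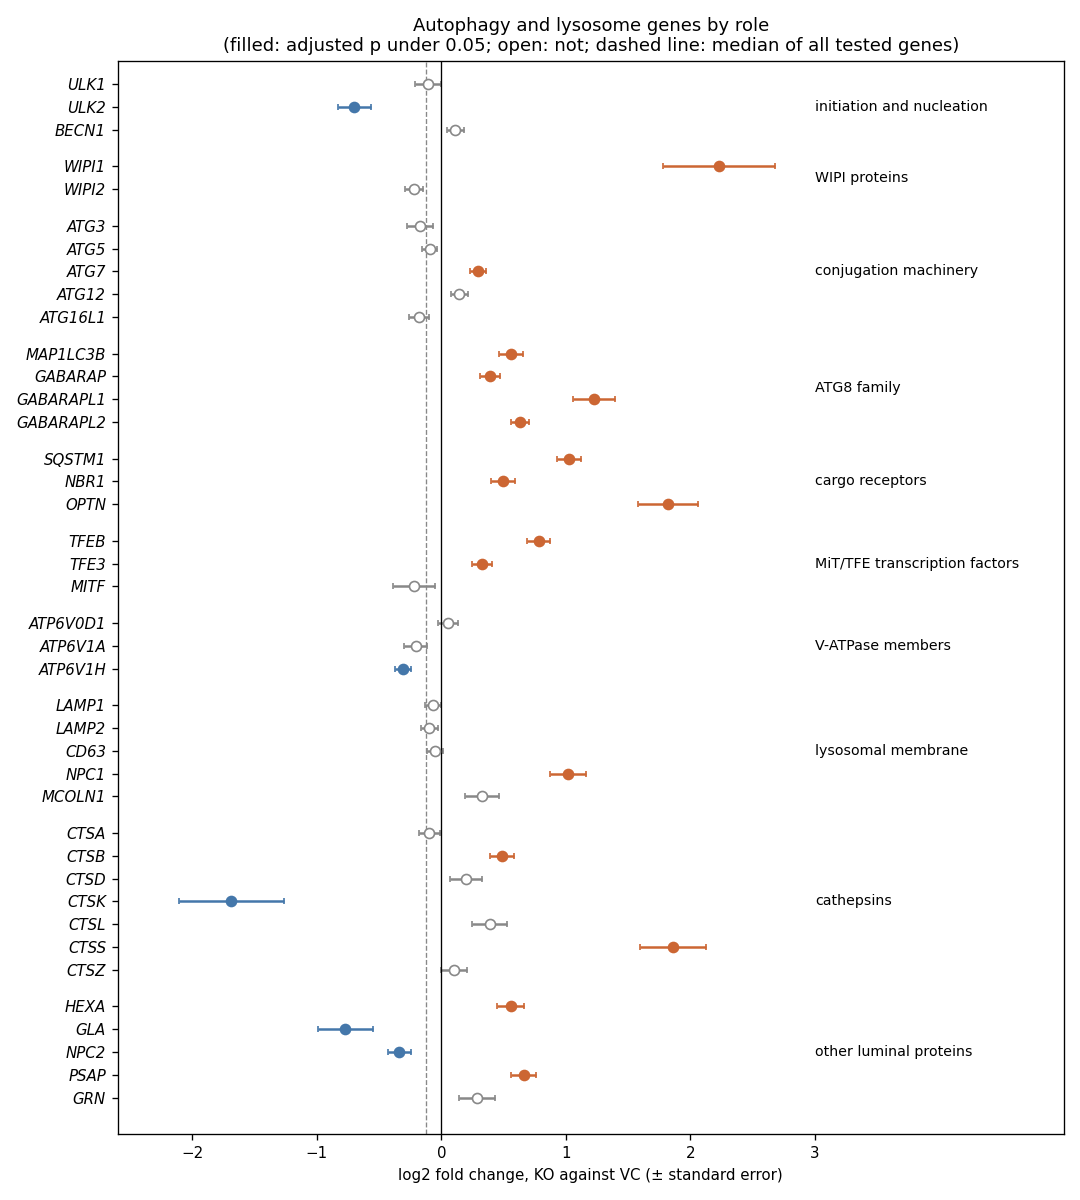
Log2 difference between the KO and VC means for the 40 genes with its 95% confidence interval, coloured by the call at an adjusted p under 0.05. The differences run from -1.69 for CTSK to 2.23 for WIPI1, and the 7 of these 40 genes in the ATG8 and cargo receptor groups are all called higher.

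Of 3 genes that act at the start of autophagy, 1 fell (33.3%) and none rose, against 19.8% and 13.1% of all tested genes. ULK2, a kinase of the initiating complex, had log2 signals of -0.06, -0.23 and -0.37 in VC and of -0.72, -1.09 and -0.95 in KO. All KO values were lower, by a mean of 0.70 on the log2 scale (log2 difference -0.70, SE 0.135, limma adjusted p = 0.02), which is 1.62-fold. Its call was kept in 2 of the 6 fits with a library left out, those without KO1 and without KO2, and the adjusted p was highest, at 0.066, without VC1. Its close relative ULK1 differed by -0.11 (limma adjusted p = 0.446) and BECN1, a subunit of the lipid kinase complex, by 0.11 (limma adjusted p = 0.248). For both, the values of VC and KO were close and neither passed the test. The groups overlapped for ULK1, while BECN1 was higher in every KO library.

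WIPI1 and WIPI2 bind the lipid made at the nucleation site. WIPI1 had the largest increase of the 40 genes, with log2 signals of 0.12, 0.34 and 0.36 in VC and 1.48, 3.07 and 2.96 in KO. The KO libraries were all higher but far apart, KO1 standing well below the other two. The mean log2 difference was 2.23 (SE 0.451, limma adjusted p = 0.0223), or 4.7-fold. The call held in 1 of 6 fits with a library left out, that without KO1, and the adjusted p reached 0.0728 without VC1. In the annotation, 24.3% of the exon bases of WIPI1 are shared with ARSG on the opposite strand, whose signal averaged -0.20 in VC and -0.16 in KO. Whether the counting used strand is not stated. WIPI2 was lower in every KO library and differed by -0.22 (limma adjusted p = 0.073).

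The ligase system that attaches ATG8 proteins to lipid is formed here by ATG3, ATG5, ATG7, ATG12 and ATG16L1. Of these 5 genes, 20% were called higher, against 13.1% of all tested genes. Only ATG7, the activating enzyme at the head of the cascade, passed the test. Its groups did not overlap. The difference of 0.29 (SE 0.0655, limma adjusted p = 0.028) is 1.22-fold, and the call held only without KO1 among the 6 fits, with an adjusted p of up to 0.1 without VC1. VGLL4, which shares 18.1% of the exon bases of ATG7 on the opposite strand, averaged 3.36 in VC and 3.65 in KO. The conjugating enzyme ATG3 differed by -0.17 (limma adjusted p = 0.255), with a 95% interval that included 0. ATG5, ATG12 and ATG16L1, the parts of the final ligase, differed by -0.10, 0.14 and -0.18 (limma adjusted p = 0.283, 0.162 and 0.145).

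All 4 genes of the ATG8 family among the 40 rose, against 13.1% of all tested genes. These small ubiquitin-like proteins coat the autophagosome membrane and hold cargo receptors there. GABARAPL1 had log2 signals of 1.51, 1.65 and 1.58 in VC and of 2.48, 3.10 and 2.83 in KO. With 1.22 (SE 0.171, limma adjusted p = 0.0115, 2.34-fold) it had the largest difference of these 4 genes. GABARAPL2 had 5.23, 5.32 and 5.20 in VC and 5.85, 5.95 and 5.84 in KO. Here the KO libraries lay close together, and the difference was 0.63 (SE 0.0741, limma adjusted p = 0.00963; 1.55-fold). Both calls held with each library left out, at adjusted p-values of at most 0.0489 and 0.0453 without VC3.

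MAP1LC3B, which encodes LC3B, the usual marker of autophagosomes, had log2 signals of 5.15, 5.24 and 5.13 in VC and of 5.60, 5.88 and 5.72 in KO. The groups did not overlap and differed by 0.56 (SE 0.0953, limma adjusted p = 0.0157; 1.47-fold). GABARAP differed by 0.39 (SE 0.0835, limma adjusted p = 0.0253; 1.31-fold). The MAP1LC3B call held in 3 of the 6 fits, without VC2, KO1 or KO2, and that of GABARAP in 2, without KO1 or KO2. Their highest adjusted p-values, 0.0639 and 0.0875, came without VC3. In the annotation, GABARAP shares 30.5% of its exon bases with AC120057.2 on the same strand and 25.2% with AC120057.3 on the opposite strand, whose signals were not analysed here. Near-identical copies could share reads with both genes: MAP1LC3B2 differed by 0.38 (limma adjusted p = 0.0627), and GABARAPL3, with values in 3 libraries, was not tested. MAP1LC3A, another LC3 gene, was named after its values were seen, because it could not be tested. It had log2 signals of -3.81, -4.06 and -3.93 in VC and, among the KO libraries, a value in KO1 alone, of -5.23. MAP1LC3C, also an LC3 gene, had no value in any library.

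All 3 cargo receptor genes among the 40 rose, against 13.1% of all tested genes. Cargo receptors carry a ubiquitin-binding domain and a short motif that docks on ATG8 proteins. SQSTM1, which encodes p62, had log2 signals of 5.57, 5.54 and 5.58 in VC and of 6.42, 6.72 and 6.63 in KO. The VC libraries nearly coincided and every KO library stood well above them. The difference of 1.02 (SE 0.0978, limma adjusted p = 0.00789) is 2.03-fold, and with each library left out the adjusted p stayed at or under 0.0412. MRNIP shares 20.7% of the exon bases of SQSTM1 on the opposite strand and averaged 2.27 in VC and 1.97 in KO.

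OPTN, the optineurin receptor of mitochondria and bacteria, had log2 signals of 0.63, 0.58 and 0.82 in VC. Its KO signals were 2.02, 2.90 and 2.57, all above the VC range. The difference of 1.82 (SE 0.239, limma adjusted p = 0.0105) is 3.53-fold and was called with each library left out, with an adjusted p of up to 0.0451. NBR1, a partner of p62, had 3.85, 3.87 and 3.84 in VC and 4.21, 4.50 and 4.34 in KO. It differed less, by 0.50 (SE 0.0952, limma adjusted p = 0.0199; 1.41-fold), and its call held in the 2 fits without KO1 and without KO2, with an adjusted p of 0.0737 without VC3.

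Of the 3 genes for transcription factors of the MiT/TFE family, TFEB and TFE3 rose and MITF did not pass the test. The share that rose was 66.7%, against 13.1% of all tested genes. TFEB, the factor best known for lysosomal genes, had log2 signals of -0.46, -0.68 and -0.52 in VC and of 0.21, 0.31 and 0.17 in KO. Its signal was low in both groups, which did not overlap. The difference was 0.78 (SE 0.0893, limma adjusted p = 0.00923; 1.72-fold), or 0.37 with 1 added to the linear signal, and was called with each library left out at an adjusted p of up to 0.044. TFE3 had 3.54, 3.43 and 3.56 in VC and 3.79, 3.93 and 3.79 in KO. It differed by 0.33 (SE 0.0803, limma adjusted p = 0.0335; 1.26-fold), a call held only without KO1 and with an adjusted p of 0.0933 without VC1. MITF, which also directs pigment and osteoclast genes, had -0.53, -0.78 and -0.60 in VC and -0.77, -0.62 and -1.18 in KO. Its groups overlapped, with a difference of -0.22 (SE 0.169, limma adjusted p = 0.35).

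TFEB and its relatives bind a palindrome known as the CLEAR element, whose core holds the E-box CACGTG. In promoters of 250 bases before to 50 after the start (RefSeq, GRCh38.p14), found for 32 of the 40 genes, the letters TCACGTGA, read on both strands, stood in 5 promoters. Of 35116 promoters in the RefSeq table, 0.98% hold these letters, and of the 27305 genes they belong to, 1.18%. The 5 genes are shown because they carry the core near the start and none of them was called. The core is in capitals in windows of 30 bases, each read along its gene.
ATG3 (chr3:112561940-112561969, minus strand): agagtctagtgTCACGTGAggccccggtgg
LAMP1 (chr13:113297199-113297228, plus strand): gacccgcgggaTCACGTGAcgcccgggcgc
LAMP1 (chr13:113297226-113297255, plus strand): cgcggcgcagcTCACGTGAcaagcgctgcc
ATP6V0D1 (chr16:67481199-67481228, minus strand): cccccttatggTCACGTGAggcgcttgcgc
MCOLN1 (chr19:7522571-7522600, plus strand): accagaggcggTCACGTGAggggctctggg
MCOLN1 (chr19:7522598-7522627, plus strand): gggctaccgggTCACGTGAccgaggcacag
CTSA (chr20:45891298-45891327, plus strand): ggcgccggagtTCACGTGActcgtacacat
In LAMP1 and MCOLN1 the core occurs as a pair, and it begins 29 and 2 bases before the start of LAMP1 and 42 and 15 bases before that of MCOLN1. In ATG3 it lies after the start, from base 5 of the transcript.

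The 5 genes with the core differed between KO and VC by -0.17 for ATG3, -0.07 for LAMP1, 0.06 for ATP6V0D1, 0.33 for MCOLN1 and -0.10 for CTSA on the log2 scale. The adjusted p-values were 0.255, 0.47, 0.62, 0.12 and 0.403 by limma. The shorter E-box CACGTG, which the core contains, was present in the promoters of 7 of the 32 genes and of 8.77% of all genes (7.26% of all promoters), and added CD63 and CTSD, neither of which was called. It was found in 0 of the 12 promoters of genes called higher, 0 of the 3 of genes called lower and 7 of the 17 of genes not called. Genes without a promoter entry could not be searched, and most of them were called. CTSB, CTSS, HEXA and PSAP were called higher, CTSK and ATP6V1H lower, and ATP6V1A and LAMP2 were not called. A match is a run of letters and not a shown binding site, and other windows were not searched. The letters TGATGNAA, the core of the element of ATF4 and CHOP, were in the promoters of 0 of the 32 genes and of 4.46% of all genes (3.62% of promoters). The letters TGACNNNGC, the core of the antioxidant response element, were in those of 9 of the 32 and of 16.1% of all genes (13.3% of promoters), and MAP1LC3B was the 1 gene among them that was called higher. NPC2 and GLA were the 2 called lower. These letters stood in 1 of the 12 promoters of genes called higher and in 2 of the 3 of genes called lower. They also stood in 6 of the 17 of genes not called. The MAP1LC3B match is shown in capitals, since it belongs to a gene called higher, and begins 46 bases before the start.
MAP1LC3B (chr16:87392280-87392309, plus strand): gcgagtcaccTGACCAGGCtgcgggctgag

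Among the 5 genes for proteins of the lysosomal membrane, 1 rose (20%) and 0 fell, against 13.1% and 19.8% of all tested genes. NPC1, which moves cholesterol out of the lysosome, had log2 signals of 2.89, 2.82 and 2.91 in VC and of 3.62, 4.13 and 3.92 in KO. The groups stood well apart, with a mean difference of 1.02 (SE 0.142, limma adjusted p = 0.0115; 2.02-fold), and the call held with each library left out at an adjusted p of up to 0.0482. RMC1 shares 5.98% of the exon bases of NPC1 on the opposite strand and averaged 2.43 in VC and 2.52 in KO. LAMP1, the abundant glycoprotein that lines the membrane, had 6.26, 6.26 and 6.26 in VC and 6.25, 6.15 and 6.18 in KO. Its difference of -0.07 (limma adjusted p = 0.47) had a 95% interval from -0.23 to 0.10 and turned to 0.02 after centring of the libraries. LAMP2 differed by -0.10 (limma adjusted p = 0.31). CD63, a tetraspanin of late endosomes, differed by -0.05 (limma adjusted p = 0.553) and by 0.03 after centring. MCOLN1, the calcium channel of the membrane, was higher in each KO library, but its difference of 0.33 had an adjusted p of 0.12 by limma.

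The vacuolar proton pump was represented by ATP6V0D1 of its membrane sector and by ATP6V1A and ATP6V1H of its cytosolic sector. Of these 3 genes, 33.3% were called lower, against 19.8% of all tested genes. Only ATP6V1H, a regulatory subunit, was called, and it fell. Its log2 signals were 3.56, 3.54 and 3.52 in VC and 3.20, 3.29 and 3.20 in KO. The difference of -0.31 (SE 0.0661, limma adjusted p = 0.0253; 1.24-fold lower) is close to the median of -0.32 over the other tested genes of its chromosome, 8. After centring of the libraries it was -0.23 (limma adjusted p = 0.0741), and the call held in the 2 fits without KO1 and without KO2, with an adjusted p of 0.0909 without VC1. The catalytic subunit ATP6V1A differed by -0.21 (limma adjusted p = 0.143).

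Of the 7 cathepsin genes, 2 rose (28.6%) and 1 fell (14.3%), against 13.1% and 19.8% of all tested genes. Cathepsins are the main proteases of the lumen. CTSS, a cathepsin known from antigen-presenting cells, had log2 signals of -1.99, -1.70 and -1.51 in VC and of 0.44, 0.34 and -0.39 in KO. Its KO signals were all above the VC range, by 1.86 on average (SE 0.264, limma adjusted p = 0.0118; 3.64-fold), and with each library left out the adjusted p stayed at or under 0.0463. The blood cell marker PTPRC was low in both groups, at -4.62 in VC and -5.80 in KO, and LYZ at -4.17 and -5.25. CTSB, a widely expressed cathepsin, differed by 0.49 (SE 0.0976, limma adjusted p = 0.0217; 1.4-fold), a call held in the 2 fits without KO1 and without KO2, with 0.0727 without VC3.

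CTSK, the collagen-degrading cathepsin of osteoclasts, was the member with the largest decrease. It had log2 signals of -1.12, -1.50 and -1.58 in VC and of -2.83, -3.99 and -2.45 in KO. The KO libraries were all lower and widely spread, with a mean difference of -1.69 (SE 0.422, limma adjusted p = 0.0352; 3.22-fold lower). Leaving out any VC library ended the call, with an adjusted p of up to 0.101 without VC1. The other 4 cathepsin genes were not called. CTSL was higher in each KO library, by 0.39 (limma adjusted p = 0.0881). CTSD, CTSZ and CTSA differed by 0.20, 0.10 and -0.10 (limma adjusted p = 0.27, 0.463 and 0.403).

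Of the other 5 genes of the lysosomal lumen, 2 rose (40%) and 2 fell (40%), against 13.1% and 19.8% of all tested genes. PSAP, the precursor of the saposins that help to break down sphingolipids, had log2 signals of 7.71, 7.66 and 7.72 in VC and of 8.20, 8.52 and 8.37 in KO. It rose by 0.66 (SE 0.101, limma adjusted p = 0.0132; 1.58-fold), a call lost without VC1 and without VC3 (0.0547 without VC3). HEXA, a subunit of the hexosaminidase that degrades gangliosides, had 3.90, 3.81 and 3.83 in VC and 4.22, 4.57 and 4.42 in KO. Its difference was 0.56 (SE 0.11, limma adjusted p = 0.021; 1.47-fold), and the call held in the 2 fits without KO1 and without KO2, with 0.0746 without VC3. Both genes had KO values wholly above those of VC.

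GLA, the galactosidase that is deficient in Fabry disease, had log2 signals of 3.73, 3.79 and 3.75 in VC and of 3.41, 2.55 and 2.99 in KO. The VC libraries nearly coincided and the KO libraries did not. The mean difference of -0.77 (SE 0.223, limma adjusted p = 0.0495; 1.71-fold lower) was called in 1 fit with a library left out, that without KO1, and had an adjusted p of 0.0529 after centring and of 0.12 without VC3. NPC2, the lumenal partner of NPC1 in cholesterol export, had 4.86, 4.76 and 4.82 in VC and 4.34, 4.59 and 4.50 in KO. All KO values were lower, by a mean of 0.34 (log2 difference -0.34, SE 0.0902, limma adjusted p = 0.0411; 1.26-fold). The median over the other tested genes of its chromosome, 14, was -0.39, and after centring the difference was -0.25 (limma adjusted p = 0.119). The NPC2 call held in the 2 fits without KO1 and without KO2, with 0.125 without VC1. NPC1 and NPC2 thus differed in opposite directions. GRN, which encodes progranulin, differed by 0.29 (limma adjusted p = 0.169).

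**Figure D3:**
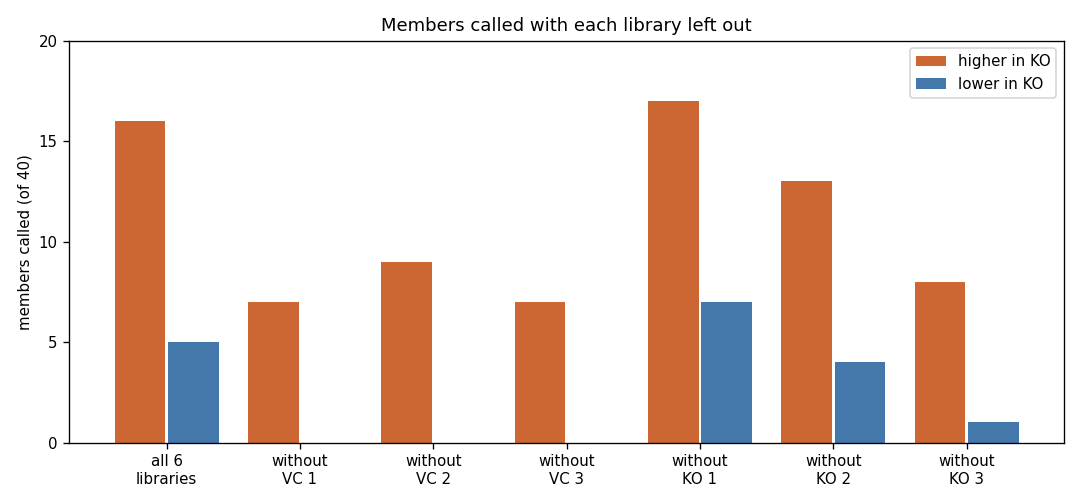
Number of the 40 genes called higher and lower in KO with all 6 libraries and with each library left out in turn. The count of higher calls runs from 7 without VC1 or VC3 to 17 without KO1, against 16 with all libraries, and the count of lower calls from 0 to 7.

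The KO libraries were not alike. In 15 of the 16 genes called higher, KO2 had the highest signal of the 3 KO libraries, and KO1 had it in the other. KO1 had the lowest in 11 and KO3 in 5. The same order was not counted over all genes called higher, so it cannot be read as particular to the 40 genes. Relative to the VC mean, the median of the 40 genes was 0.0845 in KO1, 0.259 in KO2 and 0.218 in KO3. Over all genes with 6 values, the first principal component, with 63.5% of the variance, had scores of 20.8, 73.8 and 48.9 for KO1, KO2 and KO3 and between -48.4 and -46.7 for the VC libraries. The order of the 3 KO medians is thus the order on that component, and its part in the results was not tested.

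Other genes of the pathway were taken as 6 lists with 138 genes that are not among the 40. Of these, 133 could be tested, with a median log2 difference of 0.11. Among the 133, 31 rose (23.3%) and 15 fell (11.3%), against 13.1% and 19.8% of all tested genes. Leaving out a library moved these counts to between 6 and 42 higher and between 4 and 28 lower, while the shares over all tested genes ran from 3.51% to 15.9% higher and from 3.05% to 31.0% lower. The lowest higher count, 6, came without VC1 and without VC3, and VC2 (9), KO3 (9) and KO2 (17) also lowered it by more than 1.5 times. The count of lower calls was 4, 6 and 5 without VC1, VC2 and VC3, 28 without KO1 and 7 without KO3. After 1 was added to each linear signal, the log2 difference shrank by more than 1.5 times for 7 genes of low signal among those named below. The genes not named were not examined for this. The difference became 0.57 for ATG16L2, 0.64 for CTSO, 0.43 for ARSA, -0.77 for RETREG1, -0.15 for LAPTM5, -0.08 for ATP6V1C2 and -0.06 for ATP6V1B1. Only ATP6V1B1 lost its call (limma adjusted p = 0.0728).

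**Figure D4:**
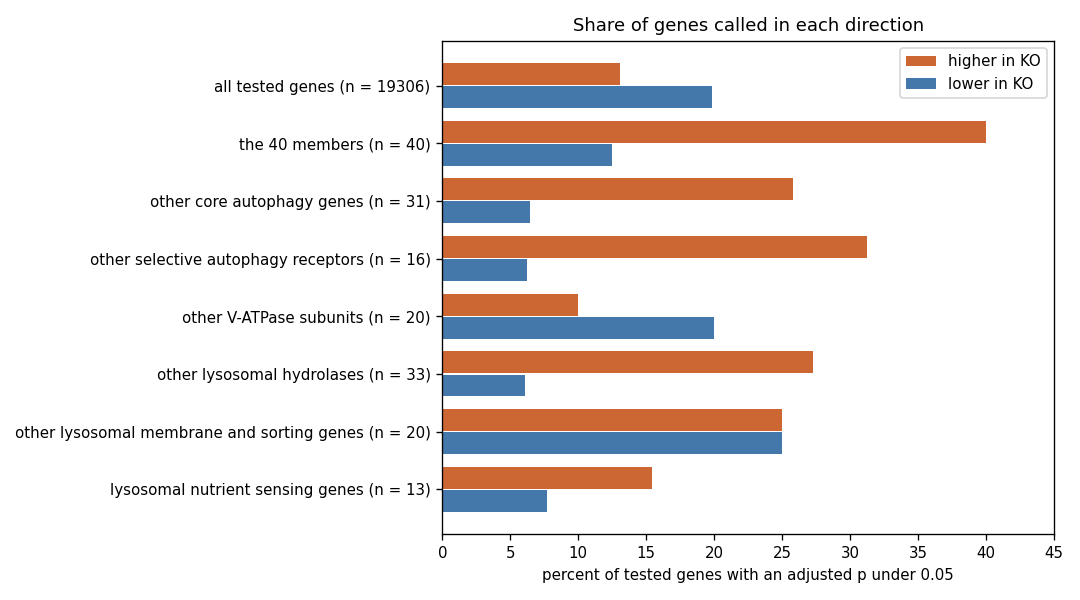
Percentage of tested genes called higher and lower in KO among all tested genes, the 40 autophagy and lysosome genes, and the 6 lists of other genes of the pathway. The 40 genes stand at 40% higher and 12.5% lower, and all tested genes at 13.1% and 19.8%.

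In the list of other core autophagy genes, 8 of 31 tested rose (25.8%) and 2 fell (6.45%), against 13.1% and 19.8% of all tested genes. WDR45, a further member of the WIPI family, had log2 signals of 1.81, 1.82 and 1.67 in VC and of 2.61, 3.43 and 3.09 in KO, a difference of 1.28 (limma adjusted p = 0.0158). Its call held in the 2 fits without KO1 and without KO2, with 0.0606 without VC3. ATG16L2, a relative of ATG16L1, differed by 1.26 (limma adjusted p = 0.0101) and was called with each library left out. The lipid kinase subunit PIK3R4 fell by 0.49 on the log2 scale (limma adjusted p = 0.0418), with 0.0526 after centring and 0.108 without VC2. ATG2B, a lipid transfer protein, fell by 0.38 (limma adjusted p = 0.0249) and was called in the fit without KO1 alone, with 0.086 without VC3. Its chromosome is 14.

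Among 16 other selective autophagy receptors, 5 rose (31.25%) and 1 fell (6.25%), against 13.1% and 19.8% of all tested genes. The mitophagy receptor BNIP3L differed by 1.06 (limma adjusted p = 0.0305), called without KO1 alone among the 6 fits and at 0.09 without VC3. CCPG1, a receptor of the endoplasmic reticulum, differed by 1.03 (limma adjusted p = 0.0168), called without VC2, KO1 or KO2 and at 0.0626 without VC3. RETREG1, another receptor of the endoplasmic reticulum, had log2 signals of 0.41, 0.31 and 0.59 in VC and of -1.01, -1.74 and -1.51 in KO. It thus moved the other way from CCPG1, with a difference of -1.86 (limma adjusted p = 0.00891) that was called with each library left out.

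Of 20 other proton pump subunits tested, 2 rose (10%) and 4 fell (20%), shares near those of all tested genes, 13.1% and 19.8%. ATP6V1E1 differed by 0.50 (limma adjusted p = 0.0101), called with each library left out. It lies on chromosome 22, where the median of tested genes was 0.29. ATP6V1F differed by 0.32 (limma adjusted p = 0.0297), called without KO1 alone and at 0.0935 without VC1. The tissue-restricted subunit genes ATP6V1C2 and ATP6V1B1 fell by 2.30 and 1.94 on the log2 scale (limma adjusted p = 0.00923 and 0.0345), from means of -3.89 and -4.10 in VC, which are low signals. The first was called with each library left out, and the second without KO1 or KO3, with 0.0945 without VC2. The other 2 that fell were ATP6V1C1 and ATP6V1D. ATP6V1C1 differed by -0.59 (limma adjusted p = 0.0132), and by -0.51 after centring (0.0144), against a median of -0.32 on its chromosome, 8. It lost its call without VC1 and without VC3 (0.0536 without VC3). ATP6V1D differed by -0.30 (limma adjusted p = 0.0364), and by -0.21 after centring (0.0802), against a median of -0.39 on its chromosome, 14, and was called without KO1 alone, with 0.105 without VC1.

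Other hydrolase genes numbered 33 tested, of which 9 rose (27.3%) and 2 fell (6.06%), against 13.1% and 19.8% of all tested genes. The protease gene CTSO differed by 1.10 (limma adjusted p = 0.00985), called with each library left out, and ARSA, a sulfatase gene on chromosome 22, by 1.08 (limma adjusted p = 0.028), called without KO1 alone and at 0.0733 without KO3. ARSB, a sulfatase that acts on glycosaminoglycans, fell by 0.83 (limma adjusted p = 0.0189), and the peptidase TPP1 fell by 0.38 (limma adjusted p = 0.0367). Both were called without KO1 or KO2 and reached 0.0664 and 0.107 without VC1. TPP1 had 0.105 after centring.

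Among 20 other genes of the lysosomal membrane and of sorting, 5 rose (25%) and 5 fell (25%). The shares of all tested genes were 13.1% and 19.8%. CD68, a heavily glycosylated membrane protein related to LAMP1, had log2 signals of 4.45, 4.43 and 4.51 in VC and of 5.71, 6.46 and 6.20 in KO. It had the largest increase of the 133 genes, 1.66 (limma adjusted p = 0.00963), and was called with each library left out. TPCN2, a channel gene, differed by 0.72 (limma adjusted p = 0.0175), lost on leaving out any VC library and at 0.0635 without VC3. LAPTM5 fell by 1.13 (limma adjusted p = 0.0338), called without VC3 or KO1 and at 0.0949 without KO3. The sorting receptor SORT1 fell by 0.73 (limma adjusted p = 0.00883), called with each library left out.

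Of 13 genes for nutrient sensing at the lysosome, 2 rose (15.4%) and 1 fell (7.69%), against 13.1% and 19.8% of all tested genes. The amino acid sensor SLC38A9 differed by 0.61 (limma adjusted p = 0.0495), with 0.0505 after centring and 0.129 without VC1. FLCN, folliculin, which acts on the Rag GTPases that control TFEB, differed by 0.50 (limma adjusted p = 0.0227), called without KO1 or KO2 and at 0.0726 without VC3. RRAGD, one of those GTPases, fell by 0.63 (limma adjusted p = 0.025), called without KO1 or KO2 and at 0.0822 without VC1.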

How the data were processed

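RNA of 143B cells was sequenced in 3 VC and 3 CNTNAP4 KO libraries, mapped to group and replicate by their titles. The authors deposited 1 table of log2 signals for 54308 genes by symbol, 29611 of them without a value in any library. The submitters' processing notes name CASAVA, STAR, Partek and the build GRCh38.p13, and the labels a TruSeq Stranded mRNA kit. The study's methods name CLC Genomics tools and Partek. Versions, annotation, linear unit and normalization are not given in the sources used here. The near-identical ranges and medians show that libraries had been scaled to 1 distribution, so a shift of total RNA could not be seen.

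The log2 signals were used as deposited, in R 4.3.3 with limma 3.58.1 (linear model, empirical Bayes moderation without trend, two-sided p). The 19306 genes for which both groups had 2 or more values were tested, with Benjamini-Hochberg adjustment over all of them and calls at an adjusted p under 0.05. The script was tested on simulated data.

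The 40 genes, the 6 other lists and the tests were chosen with earlier results of these data known. Called members without overlap between groups are given by library, at most the 12 with the largest change in each direction, and TFEB, TFE3, MITF, LAMP1, SQSTM1 and MAP1LC3B whatever their call. Of each other list, the 2 called genes with the largest change in each direction are named, and other genes named were chosen after their values were seen. Of the 40 genes, 8 had no entry in the RefSeq promoter table (GRCh38.p14). Shared exon bases were counted in GENCODE v29. Alternatives changed the genes tested, the scaling, the scale, the moderation, the replicate block and the libraries.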

Additional observations from a re-analysis of the deposited data

How the results depend on the processing

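With all libraries 6354 genes were called, 16 of the 40 members higher and 5 lower, and 31 and 15 of the 133 other pathway genes. Leaving out 1 library in turn gave 1223 to 8669 calls over all genes, 7 to 17 members higher and 0 to 7 lower, and 6 to 42 other genes higher and 4 to 28 lower, the highest counts without KO1 and the lowest without VC1 or VC3. Libraries share replicate numbers by title only: the correlations of same-numbered deviations were 0.0226, 0.00509 and -0.00736, and not every library correlated best with its own number. With the replicate number as a block, 1533 genes were called, 5 members were higher and 1 lower, and 3 other genes were higher and 5 lower. Over all tested genes, 3.08% were called higher and 4.86% lower in this fit. The 5 members still higher were GABARAPL1, GABARAPL2, SQSTM1, OPTN and TFEB, and ULK2 was still lower. Centring of the libraries left 2 members lower and turned LAMP1 to 0.0188 and CD63 to 0.0322. Adding 1 to the linear signal moved the median of all genes from -0.125 to -0.0226 and gave 23 other genes lower, and trend with robust moderation gave 24. The shares of all tested genes called lower in these fits were 24.8% and 25.5%. The cause was not tested, other than the fewer libraries of the fits without 1. The median of the 40 genes stayed between 0.133 and 0.254. Of 794 values of single genes under alternatives, 623 kept direction and call, 158 kept direction without the call, 11 gained a call and 2 reversed. The unknown depth limits all low signals, such as those of TFEB, CTSS and CTSK.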
